A study of Mus musculus with 9 samples.

Results

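Myc, Mycn and Mycl are the 3 paralogous genes that encode the MYC family of transcription factors, and their levels were followed in mouse embryonic stem cells (ESCs) in which the dose of 1 of them, Myc, was raised. The genes were picked by their Ensembl identifiers, by a rule that used no measured values, though earlier results of these data were known. They make up 3 of the 35771 genes in the table, and all 3 were among the 13424 genes that passed the filter on low counts. The libraries came from 1 ESC line of mixed background, homozygous for the iMOS T1-Myc allele and carrying RERT in every group. RERT is a tamoxifen-dependent Cre recombinase knocked into the Polr2a locus. The iMOS T1-Myc allele gives, after recombination, a mosaic of cells that carry different numbers of extra Myc copies, each marked by an extra copy of the fluorescent protein EYFP. Cultures grew on gelatin in 2xLIF SR-ESC medium. The first group was cells with 2 extra copies of Myc and EYFP, sorted by EYFP 24 h after removal of a 24 h treatment with 20 µM 4-hydroxytamoxifen. The second was cells with no extra copy, sorted from induced mosaic cultures like those of the first group. The third was sorted cells of uninduced cultures of the same line. Each group had 3 libraries, described as biological replicas. Nothing in the labels states that they were separate cultures, so the p-values measure the spread between these samples, which may be technical. The drug treatment is also written in the labels of the uninduced samples, whose group was read from their titles. The sources used here do not name the promoter that drives the extra Myc, and the counts per gene do not separate endogenous Myc from the extra copies. The libraries differed in how levels followed transcript length: the slope of log2 level per doubling of length, after each gene's mean was subtracted, was -0.0564 to 0.00636 in cells with 2 extra copies, -0.00482 to 0.0149 in cells with no extra copy and 0.0178 to 0.0459 in uninduced cells. With 2 extra copies, replicate 1 (0.00636) stood apart from replicates 2 (-0.0471) and 3 (-0.0564). Removing this trend was one of the alternatives, and it changed no call for the 3 genes.

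MYC proteins bind DNA as dimers with MAX at E-box sequences, and they raise genes of ribosome production, metabolism and the cell cycle. The 3 paralogues share the basic helix-loop-helix leucine zipper that contacts DNA and MAX, as well as short conserved blocks in the transactivation domain, and they are often expressed in different tissues. In ESCs, both Myc and Mycn are active and can stand in for each other in part, and the LIF and STAT3 pathway is a known input to Myc. High MYC protein is also known to lower transcription of the endogenous family genes in several cell types.

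Since the allele adds copies of 1 paralogue, the sequences bear on whether its reads could be counted as another paralogue's. Myc (ENSMUSG00000022346) lies on GRCm38 chromosome 15 from 61985391 to 61990374, plus strand. Mycn (ENSMUSG00000037169) lies on chromosome 12 from 12936093 to 12941914, minus strand. Mycl (ENSMUSG00000028654) lies on chromosome 4 from 122995652 to 123002485, plus strand. Their longest annotated transcripts have 2338, 2674 and 3501 bases, with up to 1362, 1386 and 1104 coding bases. No exon of the 3 overlaps an annotated exon of another gene. The coding sequences of Myc and Mycn were identical at 68.4% of 1229 aligned bases, those of Myc and Mycl at 69.1% of 1008, and those of Mycn and Mycl at 69.6% of 1009. The following 75 bases, as long as a read, hold the pair of windows in which Myc and Mycn are most alike, with the Mycl bases beside them. They encode MYC box I, the block that carries the phosphodegron read by the ubiquitin ligase FBXW7. Each is shown on the coding strand, 5′ to 3′, and capitals mark the 47 bases that are identical in all 3 genes.
Myc: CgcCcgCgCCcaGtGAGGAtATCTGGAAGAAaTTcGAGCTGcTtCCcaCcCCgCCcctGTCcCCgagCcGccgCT
Mycn: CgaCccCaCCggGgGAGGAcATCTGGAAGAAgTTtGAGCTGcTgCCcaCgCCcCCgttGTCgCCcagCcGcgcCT
Mycl: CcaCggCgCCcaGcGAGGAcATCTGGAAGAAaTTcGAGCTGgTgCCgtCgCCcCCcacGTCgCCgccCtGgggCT
In this window 57 of the 75 bases of Mycn and 56 of those of Mycl matched Myc. The longest run of identical coding bases was 12 for Myc and Mycn, 21 for Myc and Mycl and 23 for Mycn and Mycl. Of all stretches of 75 bases in the annotated transcripts, 0 of 2715 for Myc, 0 of 3219 for Mycn and 0 of 4008 for Mycl were found in a transcript of any other gene on either strand. A perfect read of full length from 1 paralogue therefore matched no other annotated gene.

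Myc RNA was high in cells with 2 extra copies, lower in cells with no extra copy and lowest in uninduced cells. The counts of the 3 libraries were 789, 813 and 975 in cells with 2 extra copies, 187, 274 and 136 in cells with no extra copy, and 82, 112 and 92 in uninduced cells. Total counts per library ran from 4165286 to 8872303, so these were scaled to a common library total (CPM). They were then divided by the length of the longest annotated transcript in kilobases, so that paralogues could be set side by side. The transcript length of the extra Myc copies is not known here. Levels of Myc per kb, and the orders, ratios, sums and shares built on them, therefore assume the annotated length for all Myc reads. On that scale Myc stood at 59.2, 62.8 and 60.4 CPM per kb in cells with 2 extra copies, at 13.6, 13.1 and 13.9 in cells with no extra copy, and at 4.93, 6.04 and 6.06 in uninduced cells. No 2 groups overlapped, and the gaps between groups were far wider than the spread within any group. The fold difference was 4.52 for cells with 2 extra copies over cells with no extra copy (95% interval 4.12 to 4.96; adjusted p = 6.81e-23, edgeR) and 10.7 over uninduced cells (9.63 to 11.9; adjusted p = 1.88e-27). For cells with no extra copy over uninduced cells it was 2.36 (2.06 to 2.71; adjusted p = 1.10e-11). Cells sorted as having no extra copy thus did not have the Myc level of the uninduced culture. Whether that sort let in cells with extra copies was not tested. By the titles, induced and uninduced cells also differ in drug treatment and recombination. In every comparison of cells with 2 extra copies against uninduced cells, copy number cannot be told apart from these. Among the 13424 genes tested, Myc had the sixth largest log2 rise in the first comparison, the second largest in the second and rank 47 in the third. The background is that 16% of all genes were called (adjusted p below 0.05) in the first comparison, 25% in the second and 13.5% in the third. The 3 comparisons share libraries pair by pair, so they are not independent of each other.

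**Figure D1:**
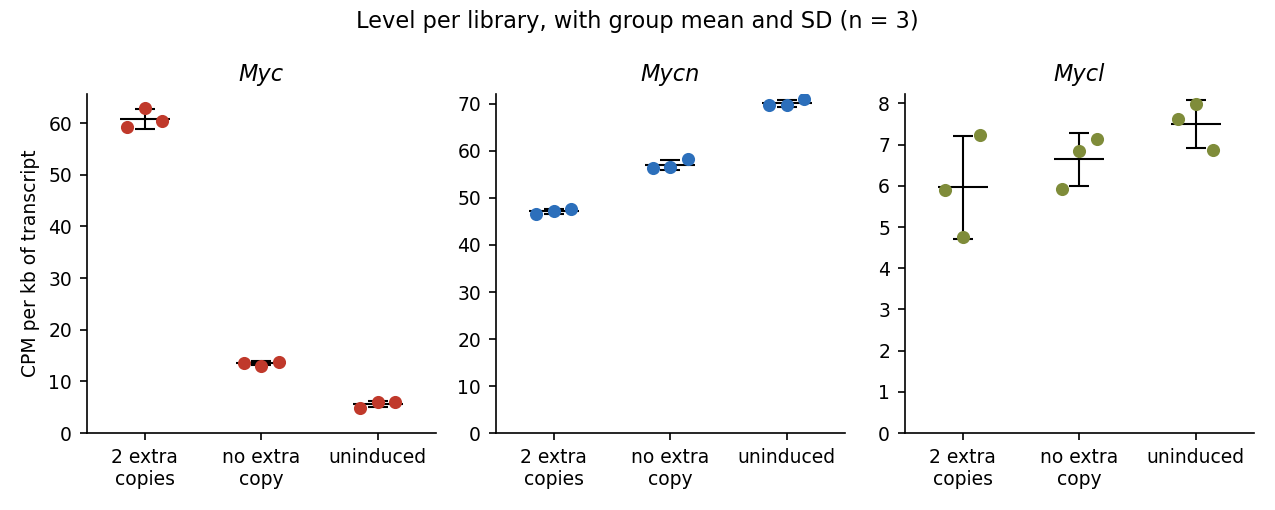
Level of each paralogue in every library, in CPM per kb of the longest transcript, with the group mean (bar) and SD (whiskers, n = 3); the vertical axes start at 0 and differ between panels. Myc is highest with 2 extra copies and lowest in uninduced cells, Mycn lies in the opposite order, both without overlap, and the Mycl groups overlapped.

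Mycn, the paralogue with the highest level in uninduced cells, was arranged in the opposite order, and by smaller steps. Its counts were 711, 699 and 878 in cells with 2 extra copies, 887, 1354 and 655 in cells with no extra copy, and 1325, 1480 and 1233 in uninduced cells. Per length these were 46.6, 47.2 and 47.6 CPM per kb with 2 extra copies, 56.4, 56.5 and 58.3 in cells with no extra copy, and 69.7, 69.8 and 71.0 in uninduced cells. The 3 groups did not overlap, which held for 30.6%, 38.5% and 31.5% of all genes in the same comparisons. Mycn fell 1.21-fold in cells with 2 extra copies relative to cells with no extra copy (log2 -0.27, 95% interval -0.36 to -0.18; adjusted p = 3.34e-05, edgeR). It fell 1.49-fold relative to uninduced cells (log2 -0.57, -0.66 to -0.49; adjusted p = 5.20e-12). Mycn was 1.23-fold lower in cells with no extra copy than in uninduced cells (log2 -0.30, -0.38 to -0.22; adjusted p = 2.22e-06). Lower calls made up 7.7%, 12.1% and 6.39% of all genes in the 3 comparisons. All 3 calls for Mycn, and all 3 for Myc, were also made under each of the 18 alternatives tried, which included other scaling, DESeq2, limma-voom and leaving out each library. In RNA from sorted populations, fewer cells with Mycn RNA and less Mycn RNA per cell cannot be told apart. All levels and sums here are relative to the other RNAs of a library, and no measure of total RNA per cell was used. A lower level of Mycn is therefore a lower share of the library, which need not be fewer Mycn molecules per cell.

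Mycl was low in every group. Its counts were 118, 92 and 175 with 2 extra copies, 122, 215 and 105 in cells with no extra copy, and 190, 222 and 156 in uninduced cells. Per length it stood at 5.91, 4.75 and 7.24 CPM per kb with 2 extra copies, 5.92, 6.86 and 7.14 in cells with no extra copy, and 7.63, 7.99 and 6.86 in uninduced cells. The libraries of each pair of groups overlapped. The log2 difference was -0.13 for 2 extra copies against no extra copy (95% interval -0.38 to 0.12; adjusted p = 0.514, edgeR) and -0.18 for no extra copy against uninduced cells (-0.41 to 0.05; adjusted p = 0.330). For 2 extra copies against uninduced cells it was -0.32 (-0.55 to -0.08), a 1.24-fold fall that passed the threshold narrowly (adjusted p = 0.0456). That call was lost under 11 of 18 alternatives, among them DESeq2 (adjusted p = 0.265), limma-voom (0.0630) and the fit with the replicate number as a block (0.0512). With the lowest library left out, replicate 2 with 2 extra copies, the log2 difference was -0.18 (adjusted p = 0.283). Mycl counts carried more counting error than those of Mycn. Averaged over the libraries of each group, the error for Mycl was 9.06%, 8.54% and 7.32%, against 3.64%, 3.33% and 2.73% for Mycn.

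The order of the 3 paralogues within a cell population changed with the group. In cells with 2 extra copies Myc was first at 60.8 ± 1.87 CPM per kb, followed by Mycn at 47.1 ± 0.484 and Mycl at 5.97 ± 1.25 (SD, n = 3). In cells with no extra copy Mycn led at 57.1 ± 1.08, with Myc at 13.5 ± 0.391 and Mycl at 6.64 ± 0.637. In uninduced cells Mycn led at 70.1 ± 0.736, Mycl followed at 7.49 ± 0.578, and Myc was last at 5.68 ± 0.645. These orders held in each library of the group. With coding length in place of transcript length, Myc still led in cells with 2 extra copies. It stood at 104 ± 3.20 against 90.9 ± 0.934 CPM per coding kb for Mycn. In uninduced cells Myc was still last, at 9.74 ± 1.11 against 23.8 ± 1.83 for Mycl. In cells with no extra copy, Myc and Mycl lay much closer on this scale, at 23.2 ± 0.670 and 21.1 ± 2.02. Set against 13397 genes with a length, the mean Myc level was above 91.5% of genes with 2 extra copies, 63.9% with no extra copy and 42.3% in uninduced cells. Mycn was above 88.6%, 91.2% and 93.1%, so it stayed among the abundant RNAs in all 3 groups. Mycl was above 44.1%, 45.9% and 48.7%.

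The ratio of Myc to Mycn does not depend on library scaling. Per length it was 1.27, 1.33 and 1.27 in cells with 2 extra copies, 0.241, 0.231 and 0.237 in cells with no extra copy, and 0.0708, 0.0866 and 0.0853 in uninduced cells. Each group occupied a narrow band of its own. The ratio in cells with 2 extra copies was 5.45-fold that in cells with no extra copy (log2 2.45) and 16.0-fold that in uninduced cells (log2 4.00). In cells with no extra copy it was 2.94-fold that in uninduced cells (log2 1.56). The exact permutation test, two-sided, had p = 0.1 for each difference, the smallest value that 3 libraries against 3 allow. The ratio of Mycn to Mycl, 2 genes with no transgenic copy in these cells, moved little by comparison, at 8.14 ± 1.70 with 2 extra copies, 8.64 ± 0.759 with no extra copy and 9.40 ± 0.843 in uninduced cells (SD, n = 3), with overlapping libraries.

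**Figure D2:**
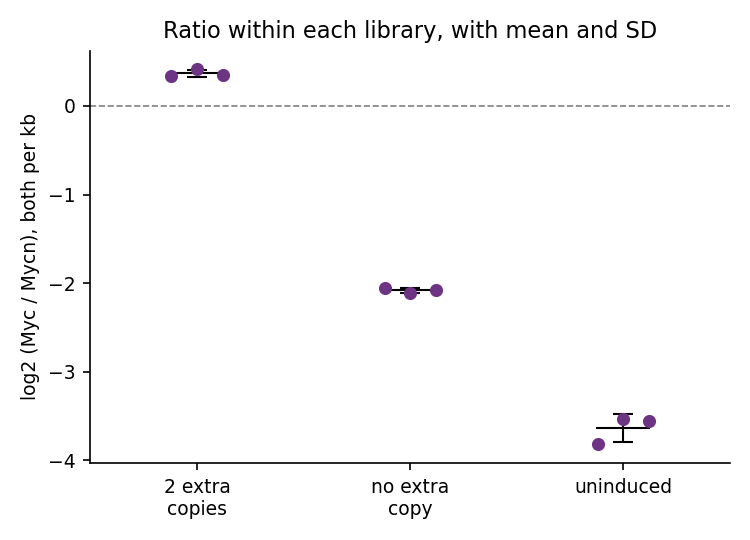
Log2 ratio of Myc to Mycn per kb of transcript in each library, with the group mean (bar) and SD (whiskers, n = 3); the dashed line marks equal levels. The means are 0.37 with 2 extra copies, -2.08 with no extra copy and -3.63 in uninduced cells.

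The summed level of the family rose far less than Myc itself. It was 112, 115 and 115 CPM per kb in cells with 2 extra copies, 75.9, 76.5 and 79.3 in cells with no extra copy, and 82.2, 83.8 and 83.9 in uninduced cells. The highest sums were those with 2 extra copies, and the sums of cells with no extra copy lay just below those of uninduced cells. The sum with 2 extra copies was 1.48-fold that with no extra copy and 1.37-fold that in uninduced cells. In cells with no extra copy it was 0.927-fold that in uninduced cells. The exact permutation p was 0.1 for each, the smallest possible. With coding length these ratios were 1.39, 1.27 and 0.915. When the reads of the 3 genes were added and fitted as 1 gene beside all others, the log2 change was 0.48 (SE 0.039; adjusted p = 2.17e-10, edgeR) for 2 extra copies against none and 0.35 (SE 0.038; adjusted p = 1.96e-08) against uninduced cells. For cells with no extra copy against uninduced cells it was -0.13 (SE 0.039; adjusted p = 0.0203). This small fall was not called by DESeq2 (adjusted p = 0.145), nor without replicate 2 (0.0808) or 3 (0.0617) of the uninduced cells or replicate 1 (0.0969) or 2 (0.0927) of the cells with no extra copy.

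**Figure D3:**
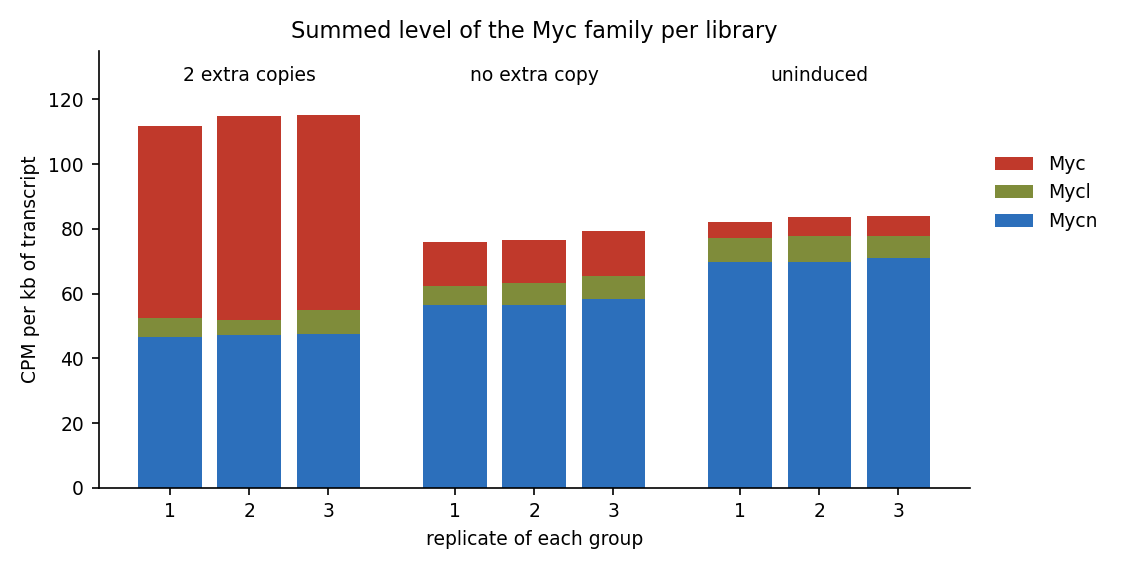
Summed level of the family per library in CPM per kb of transcript, stacked by gene, with the 3 libraries of each group side by side. Sums are 112 to 115 with 2 extra copies, 75.9 to 79.3 with no extra copy and 82.2 to 83.9 in uninduced cells, and the Myc part is largest in the first group.

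The make-up of the sum differed between the groups. Myc made up 53.4 ± 1.20% of the summed level in cells with 2 extra copies, 17.5 ± 0.402% with no extra copy and 6.81 ± 0.702% in uninduced cells (SD, n = 3). Mycn made up 41.4 ± 0.312%, 73.9 ± 0.375% and 84.2 ± 0.815%, and Mycl 5.24 ± 1.08%, 8.59 ± 0.682% and 8.998 ± 0.724%. Between cells with 2 extra copies and cells with no extra copy, Myc was higher by 47.3 CPM per kb and Mycn differed by -9.95, a difference as large as 21.0% of the Myc gain. Between cells with 2 extra copies and uninduced cells, the Myc gain was 55.1 and the Mycn difference -23.0 CPM per kb, or 41.7% of it. Between cells with no extra copy and uninduced cells, the Myc gain was 7.84 and the Mycn difference -13.0 CPM per kb. In that comparison the Mycn loss was 166.5% of the Myc gain, and the sum differed by -6.06 CPM per kb. With the coding length of both genes these shares were 23.6%, 46.9% and 187.1%. Neither scale gives a shorter transcript to the extra Myc copies alone, with which the Myc gain would be larger and the shares smaller. The log2 change of Mycn was -0.27 between the 2 induced populations, where that of Myc was 2.18, and -0.30 between cells with no extra copy and uninduced cells, where that of Myc was 1.24. Whether these Mycn changes differ was not tested.

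**Figure D4:**
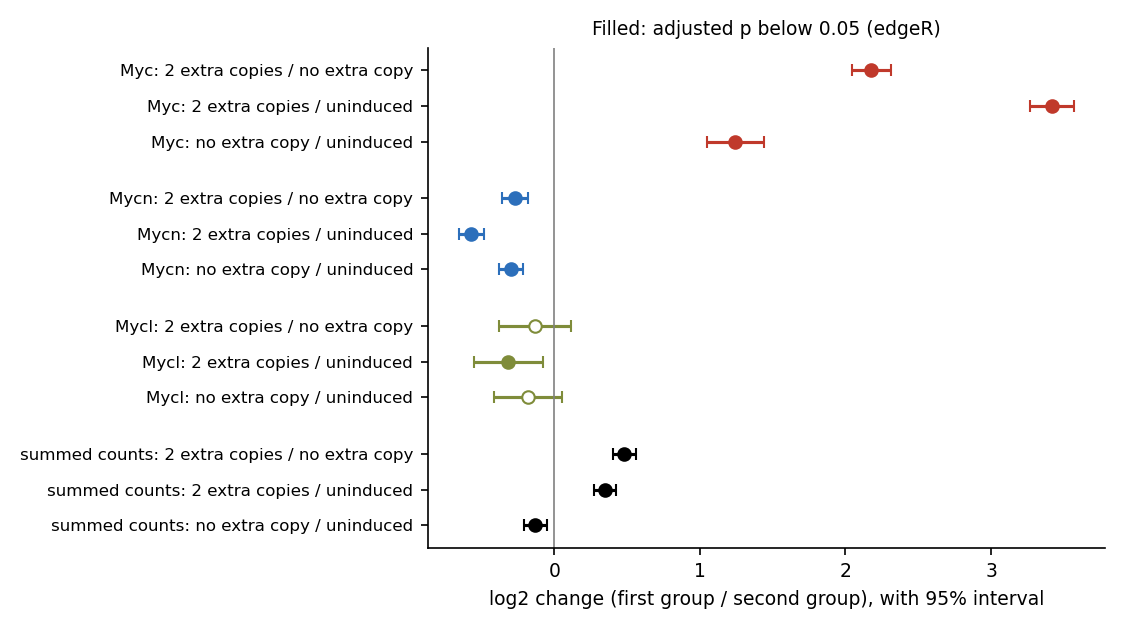
Log2 change of each paralogue and of their summed counts in the 3 comparisons, first group over second, with 95% intervals from edgeR; filled points have an adjusted p below 0.05. Myc lies between 1.24 and 3.42, Mycn between -0.57 and -0.27, Mycl between -0.32 and -0.13, and the summed counts between -0.13 and 0.48.

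Another 2 genes are named after Myc. Bmyc, which encodes a short MYC-like protein without the DNA-binding domain in rodents, had 8.06 to 8.98 CPM with 2 extra copies, 8.33 to 11.1 with no extra copy and 9.39 to 12.5 in uninduced cells. Its log2 differences of -0.18, -0.40 and -0.22 were not called (adjusted p = 0.510, 0.0614 and 0.399, edgeR). Mycs, an intronless rodent relative, had 0 counts in every library. Polr2a, the locus of RERT, was not called (log2 -0.12, -0.12 and -0.00; adjusted p = 0.553, 0.485 and 0.993), and Gt(ROSA)26Sor had 46 counts over all libraries, too few to be tested.

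Promoter sequences were examined for Mycn and Mycl, as the promoter source held no window for Myc. These 2 paralogues have no transgenic copy. With 2 extra copies against uninduced cells, the fall of Mycn was called under every alternative and that of Mycl under 7 of 18. They are shown from 250 bases before to 50 bases after the start site, on the gene's own strand, 5′ to 3′, from RefSeq on GRCm38.p6. The Mycn window is chr12:12941787-12942086 on the minus strand, and the Mycl window is chr4:122995681-122995980 on the plus strand. The RefSeq start lies inside the gene as annotated for the counts, 78 bases after its first base for Mycn and 279 bases after it for Mycl, so the whole Mycl window is within that annotated gene. Capitals mark motif matches, which are E2F-like words in Mycn and the word TATAAA in Mycl.
Mycn: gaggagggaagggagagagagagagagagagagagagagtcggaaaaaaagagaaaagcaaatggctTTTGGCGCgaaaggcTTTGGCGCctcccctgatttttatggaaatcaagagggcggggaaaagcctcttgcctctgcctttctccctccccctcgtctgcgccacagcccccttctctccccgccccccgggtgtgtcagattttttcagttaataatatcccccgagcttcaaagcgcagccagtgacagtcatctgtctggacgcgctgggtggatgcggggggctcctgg
Mycl: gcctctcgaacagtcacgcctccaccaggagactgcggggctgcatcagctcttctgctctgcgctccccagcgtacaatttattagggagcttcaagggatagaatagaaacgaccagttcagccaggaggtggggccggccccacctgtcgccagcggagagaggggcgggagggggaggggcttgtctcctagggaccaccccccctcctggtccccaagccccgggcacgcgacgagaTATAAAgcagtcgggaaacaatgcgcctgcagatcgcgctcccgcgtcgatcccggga
The E-box CACGTG, bound by MYC and MAX, was searched on both strands and was in neither window. It was in 7.15% of the 32851 promoters of the table. The E2F-like words TTTGGCGC and TTTCCCGC, searched on both strands, matched 2 times in Mycn, with first bases 183 and 168 bases before the start, and 0 times in Mycl. Of all promoters, 1.56% held such a word. TATAAA was found once in Mycl, 8 bases before the RefSeq start, and not in Mycn, against 13.6% of all promoters. A match describes letters only, and no binding was measured. Of the E2F factors, E2f1 RNA differed by log2 -0.20 between cells with 2 extra copies and those with none (adjusted p = 0.0410, edgeR), a call lost under 11 of 18 alternatives, and by -0.14 from uninduced cells (adjusted p = 0.122). E2f2 and E2f3 were not called in any comparison. The E2f genes are named here because of these matches.

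The nearest tested genes on each side of the 3 loci were examined next. Pvt1, the long noncoding RNA 47.6 kb after Myc that is known for its link to Myc expression, had 12.6 ± 1.63 CPM with 2 extra copies, 8.77 ± 0.590 with no extra copy and 10.4 ± 1.94 in uninduced cells (SD, n = 3). It was higher with 2 extra copies than with no extra copy (log2 0.50, adjusted p = 0.0235, edgeR), and not called against uninduced cells with 2 extra copies (adjusted p = 0.182) or with no extra copy (0.372). Fam84b, 1131.6 kb before Myc, was lower than in uninduced cells by log2 -0.87 in cells with 2 extra copies and by -0.75 in those with none (adjusted p = 6.02e-05 and 0.000512). Another gene on the other strand covers 41.7% of its exonic bases, so its count is uncertain. Ddx1, an RNA helicase gene 275.1 kb after Mycn, had 274 ± 4.61 CPM with 2 extra copies, 234 ± 5.51 with no extra copy and 250 ± 4.96 in uninduced cells. It was higher with 2 extra copies than in either other group (log2 0.22 and 0.13, adjusted p = 0.000114 and 0.0116). Fam49a, on the other side of Mycn, and Mfsd2a and Trit1, on either side of Mycl, were not called in any comparison.

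MAX, the obligate partner of all 3 proteins, was listed with related factors that compete for it and with MLX and its partners. This list had 10 genes, all tested. In cells with 2 extra copies 3 were higher and 0 lower than in cells with no extra copy, and the same counts held against uninduced cells. Higher calls made up 8.3% and 12.8% of all genes in these comparisons. Max stood at 111 ± 3.17 CPM with 2 extra copies, 88.6 ± 0.726 with no extra copy and 89.4 ± 4.11 in uninduced cells (SD, n = 3). It rose 1.26-fold over cells with no extra copy and 1.25-fold over uninduced cells (adjusted p = 2.51e-05 and 1.52e-05, edgeR). The other 2 were Mlxipl, a glucose-responsive factor that pairs with MLX (1.59- and 1.69-fold higher), and Mxi1, a repressor that pairs with MAX (1.20- and 1.34-fold higher), whose call against cells with no extra copy was lost under 11 of 18 alternatives. At an unadjusted p below 0.05, 1 was lower than in cells with no extra copy and 2 were lower than in uninduced cells. Between cells with no extra copy and uninduced cells, edgeR called 0 of the 10, also at an unadjusted p below 0.05, while DESeq2 called 0 and limma-voom 1. The median log2 changes of the list, -0.02, -0.04 and -0.01, were close to those of all genes, -0.01, -0.01 and 0.00.

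Cofactors of MYC were 14 genes, all tested. Against cells with no extra copy, 2 were higher and 0 lower with 2 extra copies, namely Ruvbl2 (1.22-fold) and Ruvbl1 (1.13-fold), the helicases of several chromatin complexes, beside 8.3% of all genes higher. Against uninduced cells, 4 were higher, among them Ruvbl2 (1.21-fold), Ruvbl1 (1.19-fold) and Actl6a (1.11-fold). In cells with no extra copy against uninduced cells, 2 were higher, Actl6a (1.12-fold) and Wdr5 (1.10-fold), the call of Wdr5 being lost under 6 of 18 alternatives. Higher calls made up 12.8% and 7.1% of all genes in the comparisons with uninduced cells. Without adjustment (p below 0.05), 2 were lower than with no extra copy, while DESeq2 called 0 lower and limma-voom 1. The medians were log2 -0.01, 0.04 and 0.05. Of the 75-base stretches of Ruvbl1, 46.1% are also in another annotated gene, so its count is less certain.

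Regulators of MYC protein stability were 16 genes, all tested, with 5 higher and 0 lower in cells with 2 extra copies than with no extra copy, beside 8.3% and 7.7% of all genes. These included Usp36 (1.23-fold), a deubiquitinase of MYC, Set (1.174-fold), an inhibitor of the phosphatase PP2A, and Aurka (1.20-fold), a kinase that stabilises the MYCN protein. Against uninduced cells, Usp36 (1.21-fold) and Set (1.10-fold) were higher, and Usp37 (1.23-fold), Gsk3b (1.167-fold) and Usp28 (1.10-fold) were lower, beside 12.8% of all genes higher and 12.1% lower. The call of Usp28 was lost under 11 of 18 alternatives. Of the 75-base stretches of Set, 35.9% are also in another annotated gene, so its count is less certain. With the transcript length trend removed, neither Gsk3b (adjusted p = 0.107) nor Usp28 (0.0868) was called. GSK3 phosphorylates the degron in the window printed above. In cells with no extra copy, 0 were higher and 3 lower than in uninduced cells: Plk1 (1.19-fold), Aurka (1.15-fold) and Usp37 (1.13-fold, lost under 6 of 18 alternatives). DESeq2 and limma-voom also called 0 in these 2 directions, and at an unadjusted p below 0.05 there was 1 lower in the first comparison and 1 higher in the third. The medians were log2 0.06, 0.07 and -0.04. Fbxw7, whose product reads that degron, was not called in any comparison.

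Known inputs to transcription of the Myc genes were 18 genes, all tested. With 2 extra copies, 2 were higher and 4 lower than with no extra copy, and 2 higher and 4 lower than in uninduced cells, while cells with no extra copy had 2 higher and 2 lower than uninduced cells. Over all genes, 8.3%, 12.8% and 7.1% were higher and 7.7%, 12.1% and 6.39% lower in these comparisons. Lef1, a WNT transcription factor, had 11.8 ± 1.04 CPM with 2 extra copies, 10.3 ± 1.54 with no extra copy and 28.6 ± 1.58 in uninduced cells (SD, n = 3). It fell 2.40-fold with 2 extra copies and 2.69-fold with no extra copy relative to uninduced cells (adjusted p = 3.07e-10 and 2.81e-11, edgeR). Lifr, the LIF receptor, fell 1.34-fold with 2 extra copies and 1.27-fold with no extra copy, and its partner Il6st fell 1.20-fold with 2 extra copies. Both have long transcripts, and without the transcript length trend the log2 changes with 2 extra copies were smaller but still called, at -0.32 against -0.42 for Lifr and at -0.18 against -0.26 for Il6st. Lifr stood at 29.5, 19.7 and 23.8 CPM with 2 extra copies and at 31.6, 34.5 and 31.1 CPM in uninduced cells. Its fall with no extra copy was not called by DESeq2 (adjusted p = 0.247), nor without replicate 1 (0.0726) or 2 (0.137) of the cells with no extra copy or replicate 2 of the uninduced cells (0.127), and its fall with 2 extra copies was not called by DESeq2 (0.0624). Cnbp, a nucleic acid binding protein that acts on the MYC promoter in human cells, rose 1.19-fold over cells with no extra copy and 1.18-fold over uninduced cells. Klf4, a pluripotency factor, had 55.3 ± 0.792 CPM with 2 extra copies, 67.8 ± 2.21 with no extra copy and 55.8 ± 0.292 in uninduced cells, so that cells with no extra copy stood above both other groups (1.23- and 1.22-fold). Stat3 and Ctnnb1 were not called in any comparison. The medians of the list were log2 -0.04, -0.06 and -0.03.

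RNA-binding proteins that act on Myc mRNAs were 10 genes, all tested. With 2 extra copies, 2 were higher and 3 lower than with no extra copy, and 2 higher and 3 lower than in uninduced cells, and cells with no extra copy had 2 higher and 2 lower than uninduced cells. The shares over all genes were again 8.3%, 12.8% and 7.1% higher and 7.7%, 12.1% and 6.39% lower. Igf2bp1, which shields Myc mRNA from decay, fell 1.14-fold relative to cells with no extra copy and 1.172-fold relative to uninduced cells. Ybx1, which binds RNA broadly, rose 1.10- and 1.16-fold in the same comparisons. Elavl1, a stabiliser of AU-rich mRNAs, stood at 125 ± 6.31 CPM with 2 extra copies, 107 ± 1.39 with no extra copy and 127 ± 4.18 in uninduced cells (SD, n = 3), so it was lowest in cells with no extra copy. Zfp36l2, which promotes decay of AU-rich mRNAs, was 1.29-fold higher with 2 extra copies and 1.31-fold higher with no extra copy than in uninduced cells. The medians were log2 -0.04 in all 3 comparisons.

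Of the listed genes known to be activated by MYC, most were higher in cells with 2 extra copies than in either other group. Of 20 such genes, all tested, 17 were higher and 1 lower with 2 extra copies than with no extra copy, with a median log2 change of 0.24, beside 8.3% of all genes higher and 7.7% lower. Against uninduced cells, 17 were higher and 2 lower, with a median of 0.21, beside 12.8% and 12.1% of all genes. With the transcript length trend removed, 15 were higher and 2 lower there. In cells with no extra copy against uninduced cells, 3 were higher and 4 lower, with a median of 0.04, beside 7.1% of all genes higher and 6.39% lower. The list and its counts describe these libraries and were not tested as a set. The list was also chosen with earlier results of these data known. Srm, the spermidine synthase, had 388 ± 18.5 CPM with 2 extra copies, 278 ± 0.947 with no extra copy and 255 ± 12.2 in uninduced cells (SD, n = 3). It was 1.40-fold higher with 2 extra copies than with no extra copy and 1.52-fold higher than in uninduced cells (adjusted p = 5.10e-10 and 7.57e-13, edgeR). Rcc1, the exchange factor of RAN, was 1.29- and 1.36-fold higher. Ldha, lactate dehydrogenase, was 1.56-fold higher with 2 extra copies than with no extra copy (937 ± 23.9 against 599 ± 7.17 CPM), and cells with no extra copy were 1.35-fold below uninduced cells (599 ± 7.17 against 812 ± 30.3 CPM). Shmt2, a mitochondrial enzyme of one-carbon metabolism, was also 1.35-fold lower with no extra copy than in uninduced cells. With 2 extra copies it was 1.15-fold lower than in uninduced cells (adjusted p = 0.000271, edgeR), though higher than with no extra copy (log2 0.23). Ccnd2, a cyclin, was 1.44-fold lower with 2 extra copies than with no extra copy and 1.39-fold lower than in uninduced cells.

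Of 7 genes known to be repressed by MYC, all tested, 0 were higher and 1 lower with 2 extra copies than with no extra copy, namely Gadd45a, a stress-response gene (1.167-fold). None was higher at an unadjusted p below 0.05 either, nor by DESeq2 or limma-voom, and DESeq2 called 0 lower. Against uninduced cells, 2 were higher and 3 lower with 2 extra copies, and 2 higher and 2 lower with no extra copy, while 12.8% of all genes were higher and 12.1% lower in the first of these comparisons, and 7.1% and 6.39% in the second. Ndrg1, a stress-inducible growth suppressor, had 10.3 ± 1.05 CPM with 2 extra copies, 9.89 ± 0.334 with no extra copy and 30.0 ± 4.04 in uninduced cells (SD, n = 3). It was 2.91-fold lower with 2 extra copies and 3.01-fold lower with no extra copy than in uninduced cells, and the 2 induced populations were not called different (log2 0.05, adjusted p = 0.882, edgeR). Cdkn1b, a CDK inhibitor, followed it at 1.43- and 1.38-fold lower. Cdkn1a and Cdkn2b, also CDK inhibitors, went the other way, with Cdkn1a 1.26-fold higher with 2 extra copies and 1.21-fold higher with no extra copy. The call of Cdkn2b with 2 extra copies was lost under 15 of 18 alternatives. The medians were log2 -0.05, -0.29 and -0.12.

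**Figure D5:**
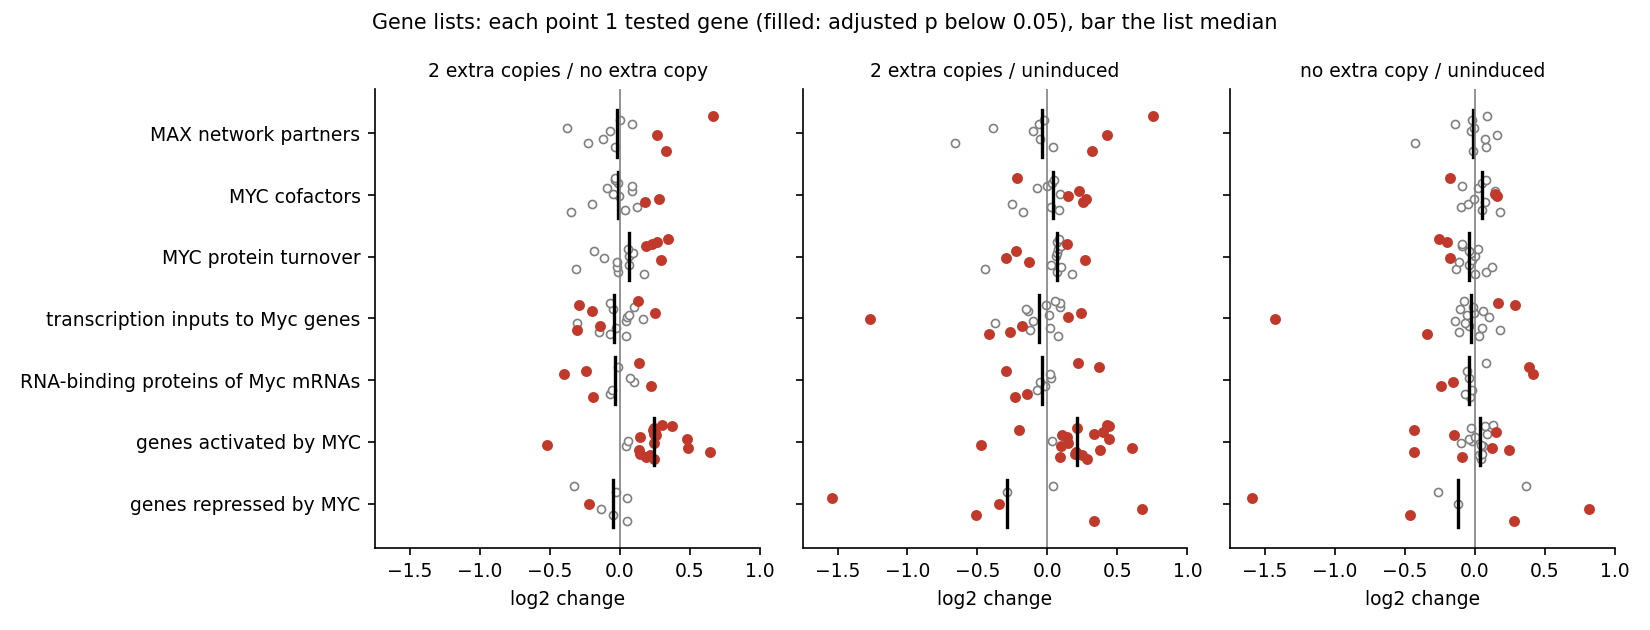
Log2 changes of the members of 7 gene lists around the Myc family in the 3 comparisons, 1 point per tested gene, filled where the adjusted p is below 0.05, with a bar at each list's median. Of the genes activated by MYC, 17 of 20 are higher with 2 extra copies in each of the first 2 comparisons, and 3 of 20 are higher in the third.

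The genes whose levels over the 9 libraries were most like those of each paralogue were ranked among 9104 genes by Pearson's r of log2 CPM, as a description. The libraries fall into 3 groups, so r largely reflects the group means. Nearest to Myc were Ptp4a3 (r = 0.992), Cbs (0.991), Isyna1 (0.991), Hspd1 (0.990) and Phb (0.989). Their spans were much narrower than that of Myc: Isyna1, an inositol synthesis enzyme, averaged 273 CPM with 2 extra copies, 187 with no extra copy and 146 in uninduced cells. Of the stretches of Hspd1 and Phb, 33.7% and 45.1% are also in another gene, so their counts are less certain. Nearest to Mycn were Spp1 (r = 0.991), Sall1 (0.989), Med12 (0.980), Fam129a (0.978) and Marcks (0.975). Sall1, a transcription factor gene of ESCs, averaged 202 CPM with 2 extra copies, 242 with no extra copy and 293 in uninduced cells, and its log2 changes of -0.26, -0.53 and -0.27 were close in size to those of Mycn. Nearest to Mycl were Tbc1d5 (r = 0.966), Arf2 (0.922), Camta1 (0.919), Mkrn3 (0.914) and Acsl1 (0.911), none of which was called in any comparison by edgeR.

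Markers of the cells' identity were measured in the same libraries. The summed level of 10 pluripotency markers was 3575 to 3768 CPM with 2 extra copies, 3901 to 3987 with no extra copy and 3654 to 3714 in uninduced cells, and each of the 10 was tested. Relative to cells with no extra copy, 0 of these were higher and 5 lower with 2 extra copies, among them Nanog (1.19-fold) and Tfcp2l1 (1.39-fold). Over all genes, 8.3% were higher and 7.7% lower in this comparison. None of the 10 markers was higher at an unadjusted p below 0.05, by DESeq2 or by limma-voom. Relative to uninduced cells, 1 was higher with 2 extra copies, Dppa5a (1.15-fold), and 1 lower, Sox2 (1.18-fold). Of all genes, 12.8% were higher and 12.1% lower there. The Dppa5a call was lost with the transcript length trend removed (log2 0.06, adjusted p = 0.215). Of the 10, 5 were higher in cells with no extra copy than in uninduced cells, among them Tfcp2l1 (1.46-fold) and Dppa5a (1.23-fold), and Sox2 was 1.09-fold lower. That comparison had 7.1% of all genes higher and 6.39% lower. Fibroblast markers, of which 7 of 9 were tested, summed to 124 to 132 CPM with 2 extra copies, 199 to 223 with no extra copy and 80.6 to 85.3 in uninduced cells. Of these, 4 were lower with 2 extra copies than with no extra copy, and 5 were higher than in uninduced cells in each induced population. The shares over all genes are those given beside the pluripotency markers. The fibroblast genes Lum and Dcn, too low to be tested, had 1 and 14 counts in all 9 libraries together. Trophectoderm markers, 3 of 6 tested, summed to 63.1 to 84.2, 103 to 115 and 37.8 to 41.0 CPM in the same order of groups, almost all of it from the keratins Krt8 and Krt18. Extraembryonic endoderm markers, 5 of 9 tested, summed to 186 to 201, 274 to 318 and 218 to 220 CPM, with 54 counts of Gata6 and 25 of Sox17 over all libraries. Immediate early genes, 8 of 9 tested, summed to 227 to 257, 257 to 287 and 248 to 310 CPM. The pluripotency, fibroblast, trophectoderm and extraembryonic endoderm sums were all highest in cells with no extra copy. The part of these genes in the differences of the Myc family and of the lists above was not tested.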

How the data were processed

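RNA from 9 libraries was sequenced as single-end 75 base reads, per the labels. The authors deposited expected counts per gene, estimated with RSEM 1.17 per the submitters' processing notes, which list limma, Picard and cutadapt too, with no role; 14.9% of the deposited values were not whole. The build was GRCm38 with annotation release 84, per the file headers. The sources used here name no aligner and do not say whether strand was used.

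The expected counts were rounded. The filter of edgeR 4.0.16 (filterByExpr by group, R 4.3.3) kept 13424 genes with 99.8% of counts. TMM-scaled counts were tested with the robust quasi-likelihood test of edgeR over all 9 libraries, group as the only term, Benjamini-Hochberg adjustment over all tested genes and calls at an adjusted p below 0.05. Fold changes are those of this fit, and CPM and CPM per kb were computed here. Sums and ratios had two-sided exact permutation tests over libraries. Symbols, lengths, coordinates and transcripts came from GENCODE M21, in which 35432 identifiers were named; promoters came from RefSeq, which matched 2 of the 3 genes. The fit was tested on simulated data.

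The genes named were Myc, Mycn and Mycl, the nearest tested gene on each side, up to 3 members per list and direction with the smallest p among called members, and the 5 genes most like each paralogue with a mean of at least 10 CPM. Uncalled list members are named after their values were seen, as were Stat3, Ctnnb1, Fbxw7 and the E2f genes. Lower calls among the MYC cofactors are not reported here against uninduced cells. The 3 genes, the lists and the tests were chosen with earlier results of these data known. Alternatives were DESeq2 1.42.0, limma-voom (limma 3.58.1), other scaling, no filter, a replicate block, a fit of only 2 groups, removal of a transcript length trend, coding length and leaving out each library.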

Additional observations from a re-analysis of the deposited data

How the results depend on the processing

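Of 342 recomputed values of 21 results, 320 stayed the same, 16 lost the call, 1 changed sign and 5 counts moved by over 1.5 times. For log2 changes of the genes and of their summed counts, the same meant the same direction and side of the threshold. Per-length sums and ratios were judged by sign alone, since their smallest possible p of 0.1 (exact permutation test) could not pass the threshold. Counts of called genes were judged only by staying within 1.5 times. Mycl with 2 extra copies against uninduced cells was not called with the size factors of DESeq2 in edgeR (log2 -0.31, adjusted p = 0.0520), by DESeq2 (-0.31), by limma-voom (-0.33) or when only both groups were fitted (-0.31, adjusted p = 0.0615). Leaving out 1 library each gave -0.49 to -0.18. Mycl with 2 extra copies against no extra copy ranged from -0.30 to 0.000277 when 1 library was left out, and changed sign without replicate 2 with 2 extra copies (adjusted p = 0.999). The summed counts of cells with no extra copy against uninduced cells gave -0.13 by DESeq2 and -0.15 to -0.12 with 1 library left out. DESeq2 called 936, 1628 and 685 genes, against 2148, 3350 and 1811 by edgeR in the same 3 comparisons. Leaving out 1 library gave 1397 to 2564, 2453 to 3719 and 1177 to 2201. The low ends 1397 and 1177 were without replicate 2 with no extra copy. With library size alone as scaling, 36.3% of calls between cells with 2 extra copies and cells with none were higher and 63.7% lower, against 51.9% and 48.1% with TMM. With the replicate number as a block, Mycl with 2 extra copies against uninduced cells was at -0.33 (adjusted p = 0.0512), the only such call lost among the 3 genes and their sum, and 2233, 3440 and 1933 genes were called. Same-numbered libraries did not deviate together (r of -0.0813 to 0.0807). With 3 libraries per group, this cannot settle whether same-numbered samples came from the same culture. The causes of these shifts were not tested. Depth limits Mycl (92 to 222 counts per library) and Myc in uninduced cells (82 to 112 counts) most.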
